A study of Mus musculus with 8 samples.

Results

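miR-103 and miR-107 are sister miRNAs, and their levels are described here in brown fat, a depot that burns lipid to make heat, of cold-exposed mice and mice kept at room temperature. They were taken as the miRNA spots that the array files annotate as mmu-miR-103 or mmu-miR-107, which gave 2 of the 566 mouse miRNAs on the array and 4 of its 1712 miRNA probes. The cold group was 3 male C57Bl6N mice held at 8 °C for 24 h, and the other group was 3 male C57Bl6N mice at 21 °C, all aged 8 weeks, with no transgene or drug named for either group. With 2 arrays each for cold mouse 1 and room temperature mouse 4, and 1 for every other mouse, 8 Agilent 1-colour arrays were read. Both miRNAs passed the filter on dim probes with all 4 of their probes, and were 2 of the 189 mouse miRNAs tested.

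A miRNA guides the Argonaute complex to messenger RNAs that pair with its seed, the bases near its 5′ end, and lowers their translation or stability. miR-103 and miR-107 are best known in mouse liver and fat, where raised levels were reported to worsen insulin sensitivity and silencing to improve it. One of their described targets in adipocytes is caveolin-1, a membrane protein that stabilises the insulin receptor.

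The mature sequences below come from RefSeq (mouse assembly GRCm38.p6), and capitals mark bases 2 to 8, the seed. They are shown because the sisters are nearly the same molecule, which bears on how far their probes can be read apart.
mmu-miR-103-3p: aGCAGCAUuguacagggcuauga
mmu-miR-107-3p: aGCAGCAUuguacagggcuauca
Counted from the 5′ end, they share 22 of 23 bases and differ by G22C, with the base of miR-103 given first. Of 1679 mature mouse miRNAs in that table, these 2 alone had the seed GCAGCAU. The table's sequences for the related miR-15 and miR-16 group carry the same AGCAGC letters 1 base further in, so that their seeds are shifted.
mmu-miR-15a-5p: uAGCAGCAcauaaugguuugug
mmu-miR-15b-5p: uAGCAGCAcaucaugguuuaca
mmu-miR-16-5p: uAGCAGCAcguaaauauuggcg
mmu-miR-195a-5p: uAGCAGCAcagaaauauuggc
mmu-miR-322-5p: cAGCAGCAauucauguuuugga
mmu-miR-497a-5p: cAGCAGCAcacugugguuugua
mmu-miR-503-5p: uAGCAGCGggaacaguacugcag
The array names its probes without arms, and the probe sequences were not used here. Whether each probe covers base 22, and how much of either sister binds to the probes of the other, was not tested, so the separate levels and the ratio given further on are those of the probes as annotated. Each sister lies inside a gene for a pantothenate kinase, an enzyme of coenzyme A synthesis. In GRCm38.p6, miR-103 comes from 2 hairpins, Mir103-1 at chr11:35782396-35782481 on the plus strand within Pank3 and Mir103-2 at chr2:131288052-131288137 on the plus strand within Pank2. Mir107 lies at chr19:34820687-34820773 on the minus strand within Pank1. Both miR-103 hairpins give the same mature sequence, so the array signal does not separate them.

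Some features of the arrays touch every value that follows. The file headers place all 8 arrays on a single slide read in a single scan, with the cold arrays in 1 row of the slide and the room temperature arrays in the other, so slide row and group cannot be told apart. Unscaled brightness, as the 75th percentile over detected probes, was 627 to 918 units per cold mouse and 863 to 1408 units per room temperature mouse. The number of mouse miRNAs well above background was 182 ± 5.00 in cold mice and 209 ± 15.3 in room temperature mice (SD, n = 3 each; exact permutation test, 2-sided, p = 0.1, which is the smallest possible with 3 against 3). Within an array, brightness also changed from end to end. Relative to the median of its own probe, a spot in array rows 1 to 64 had a median deviation of −0.88 to −0.50 (log2) on the cold arrays and of 0.08 to 0.13 on the room temperature arrays. In rows 129 to 192 the deviation was 0.10 to 0.31 on the cold arrays and −0.61 to −0.45 on the room temperature arrays. In the middle rows it was 0.04 to 0.12 on the cold arrays and 0.08 to 0.14 on the room temperature arrays. The number of mice and arrays limits the precision of what follows.

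Both sisters were readily measured. Of the 320 spots of their 4 probes over the 8 arrays, 11 were marked as outliers by the scanner software and left out, and 3 of the remaining 309 were not well above background. Signals are in background-subtracted intensity units. Probe A_54_P1341 of miR-103 averaged 620, 750 and 729 units in cold mice 1, 2 and 3, against 1033, 742 and 990 units in room temperature mice 4, 5 and 6. The other miR-103 probe, A_54_P1342, averaged 150, 247 and 341 units in the cold mice against 197, 214 and 302 units in the room temperature mice. On this unscaled measure both probes overlapped between the groups.

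For miR-107, probe A_54_P1420 averaged 1705, 2321 and 2202 units in cold mice 1, 2 and 3, against 2915, 1954 and 3134 units in room temperature mice 4, 5 and 6. A_54_P1421 averaged 896, 1107 and 1096 units in the cold mice, against 993, 749 and 1282 units in the room temperature mice. The groups again overlapped at both probes before arrays were scaled.

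After each array was scaled to its 75th percentile, the level of miR-103 (mean log2 over its 2 probes) was −1.08, −0.96 and −0.88 in cold mice 1, 2 and 3, against −1.24, −1.11 and −1.36 in room temperature mice 4, 5 and 6. All 3 cold mice lay above all 3 room temperature mice, by 0.04 between the nearest pair. Neither of its 2 probes separated the groups on its own. Nor did miR-103 with a single array each for mice 1 and 4. With their first arrays, cold mouse 1 (−1.23) lay below room temperature mouse 5 (−1.11). With their second arrays, room temperature mouse 4 (−0.89) lay above cold mice 1 and 2 (−0.92 and −0.96). Among the 189 miRNAs tested, 20.1% had groups that did not overlap with cold higher. The mean difference was 0.27 ± 0.13 (log2, SE from limma, n = 3 mice each), a fold of 1.20 with a 95% interval of 0.976 to 1.49. It did not pass the test (limma, adjusted p = 0.198; unadjusted p = 0.0754).

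The scaled level of miR-107 was 0.98, 0.94 and 0.76 in cold mice 1, 2 and 3, against 0.78, 0.49 and 0.51 in room temperature mice 4, 5 and 6. Cold mouse 3 lay below room temperature mouse 4, so the groups overlapped. The mean difference was 0.30 ± 0.14 (log2, SE, n = 3 mice each), a fold of 1.23 with a 95% interval of 0.981 to 1.54, and did not pass the test (limma, adjusted p = 0.190; unadjusted p = 0.0681). Of all 189 miRNAs tested, 15.3% passed the threshold of 0.05 after Benjamini-Hochberg adjustment, and 32.8% had an unadjusted p under 0.05. The 2 intervals include no change and reach up to folds of 1.49 for miR-103 and 1.54 for miR-107. Without scaling the differences were −0.17 for miR-103 and −0.14 for miR-107, while the median over all 189 miRNAs stood at −0.46.

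**Figure D1:**
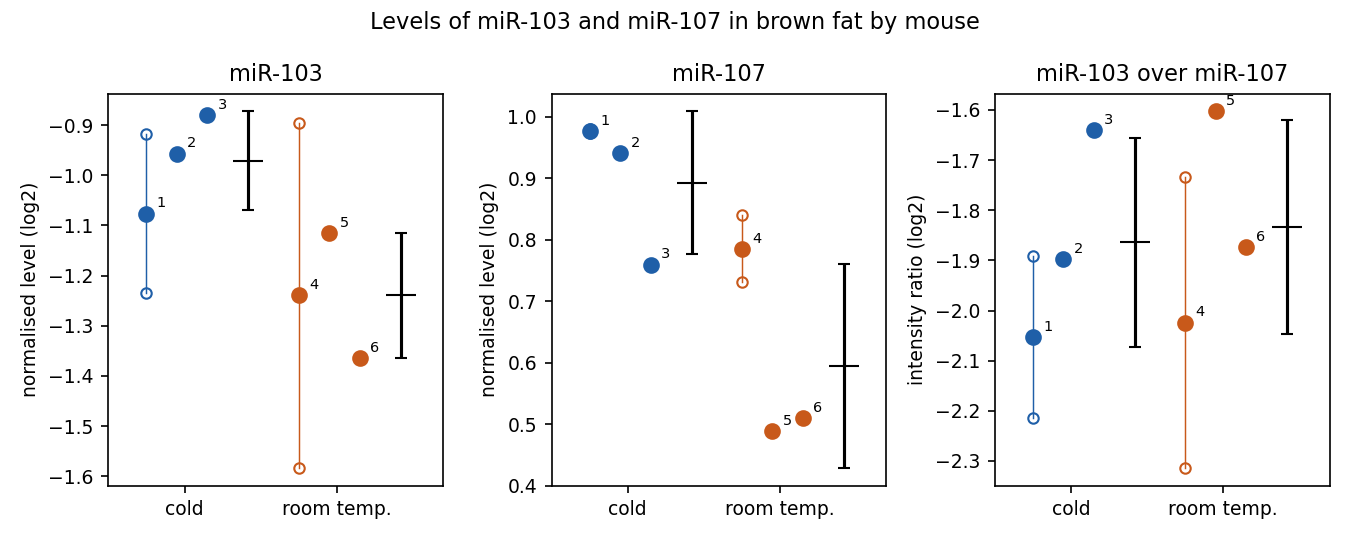
Scaled log2 level of miR-103 (left), scaled log2 level of miR-107 (middle) and log2 of their intensity ratio (right), with cold mice left of room temperature mice. Filled points are mice with their numbers, open points joined by a line are the 2 arrays of mice 1 and 4, and black bars are the mean ± SD of 3 mice. As filled points, the cold mice lie above the room temperature mice for miR-103, overlap them for miR-107 and overlap them in the ratio. For miR-103 the open points overlap between the groups.

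Technical arrays of 1 mouse showed how closely each sister could be read. For miR-103, the 2 arrays of mouse 1 gave −1.23 and −0.92, and those of room temperature mouse 4 gave −1.58 and −0.89, a gap of 0.69 (log2). That gap exceeded the difference of 0.27 between the groups. It came from A_54_P1342, whose level was −3.33 on one array of mouse 4 and −1.76 on the other. The levels of miR-107 differed by 0.01 between the arrays of mouse 1 and by 0.11 between those of mouse 4. Over all miRNAs, the median absolute difference was 0.20 in mouse 1 and 0.14 in mouse 4.

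The probes of one miRNA differed in their change. For miR-103, A_54_P1341 differed by 0.05 ± 0.18 (log2, SE; adjusted p = 0.863) and A_54_P1342 by 0.48 ± 0.22 (adjusted p = 0.153), in a limma fit over 329 probes with n = 3 mice each. For miR-107, A_54_P1420 differed by 0.09 ± 0.16 (adjusted p = 0.711). The other miR-107 probe, A_54_P1421, was 0.52, 0.41 and 0.26 in cold mice 1, 2 and 3, against 0.01, −0.20 and −0.13 in room temperature mice 4, 5 and 6. It rose by 0.50 ± 0.14 (log2, SE; limma, adjusted p = 0.0385), with no overlap between the groups. It was thus the 1 probe of the 4 that passed, where 24.3% of the 329 probes passed and 24.9% had groups that did not overlap with cold higher. This call was lost when any single mouse was left out (0.44 to 0.57, adjusted p between 0.0633 and 0.128).

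One spot of A_54_P1421, in array row 111, was dim on the room temperature arrays. It read 724, 883 and 878 units on 3 cold arrays, against 435, 263, 25.2 and 39.2 units on the room temperature arrays. On the fourth cold array, the second of mouse 1, it read 40.2 units and had been marked as an outlier there, but the dim readings at room temperature had not. Without this spot on every array, A_54_P1421 differed by 0.42 ± 0.14 and did not pass (limma, adjusted p = 0.0737, n = 3 mice each), and with the median over spots in place of the mean it differed by 0.34 (adjusted p = 0.176). Both settings were chosen after the data were seen.

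The spots of the 4 probes followed the gradient along the array. In rows 1 to 64, 0 of their 10 spots were higher in cold mice, and in rows 129 to 192, 16 of 16 were. In the middle rows, 7 of 14 were higher. Over all probes well above background on every array, the shares of spots higher in cold mice were 10.3% in rows 1 to 64, 52.2% in the middle rows and 91.8% in rows 129 to 192. The probes were not spread alike over these zones. miR-103 had 4 spots in rows 1 to 64, 6 in the middle and 10 in rows 129 to 192, against 6, 8 and 6 for miR-107. The median difference of the miR-103 spots was −1.45 (log2) in the first zone, −0.07 in the middle and 2.01 in the last. For the miR-107 spots it was −0.42, 0.17 and 1.09, and over all probes well above background on every array −1.09, 0.03 and 1.02. Over an array's spots, the coefficient of variation of the 4 probes had a median of 47.1%, with a range from 17.1% to 105%.

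**Figure D2:**
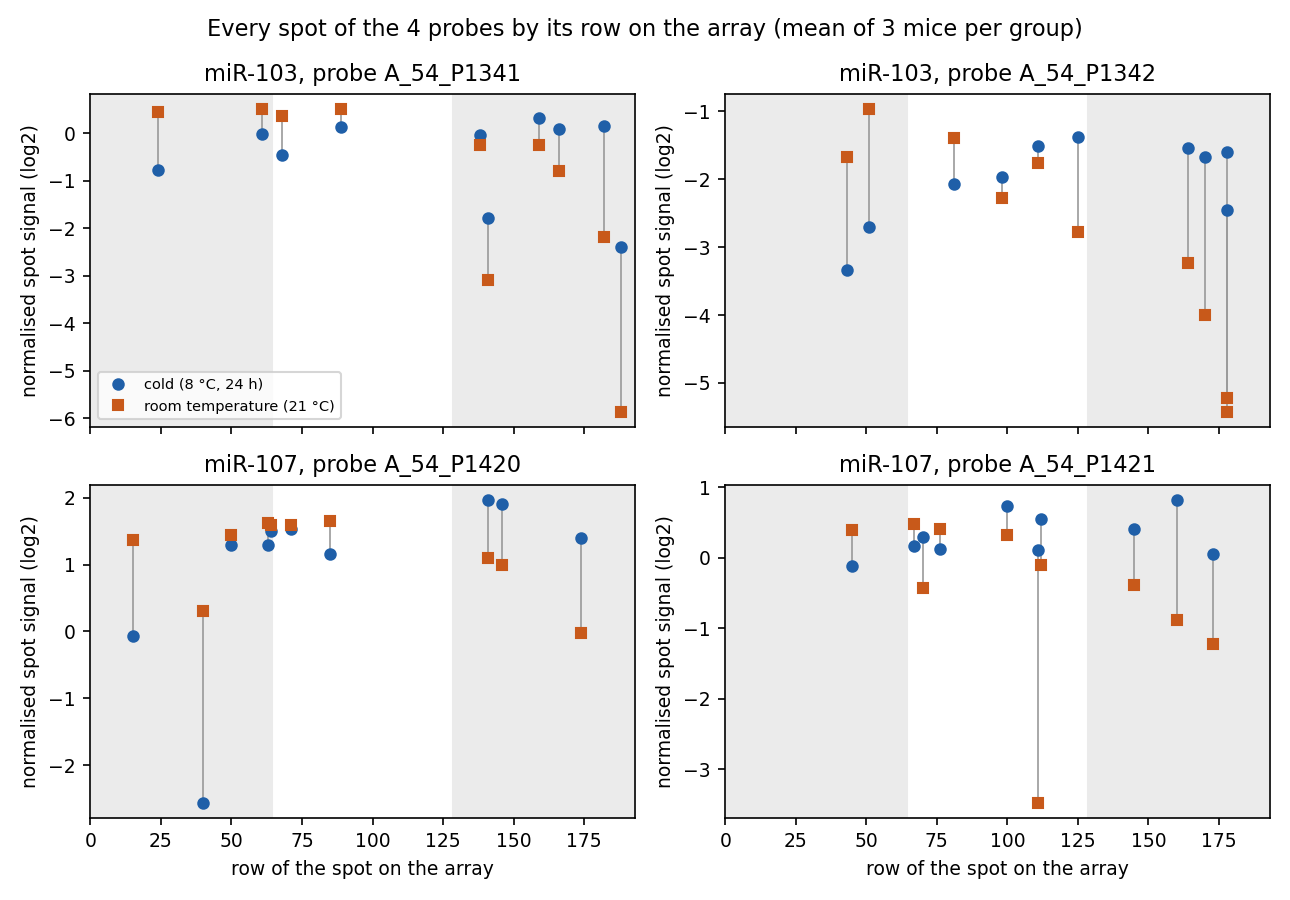
Scaled log2 signal of each spot of the 4 probes (vertical) against its row on the array (horizontal), as the mean of 3 cold mice (circles) and of 3 room temperature mice (squares), joined by a grey line. Shading marks rows 1 to 64 and 129 to 192. Cold lies below room temperature at all 10 spots in the first shaded zone and above it at all 16 spots in the last.

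The differences were also computed with allowance for this gradient, by settings chosen after the data were seen. With a smooth surface over array row and column divided out of each array, miR-103 differed by 0.09 ± 0.11 (log2, SE; limma, adjusted p = 0.661, n = 3 mice each). Its cold mice then had −1.17, −1.16 and −1.07, against −1.18, −1.18 and −1.31 in room temperature mice. These groups still did not overlap, as for 20.1% of all miRNAs with cold higher under this setting. They nearly met, however, with cold mouse 1 at −1.173 and room temperature mouse 5 at −1.176. The difference of miR-107 was 0.23 ± 0.14 (adjusted p = 0.347). That of A_54_P1421 was 0.35 ± 0.14 and no longer passed (adjusted p = 0.152). The other probes differed by −0.14 (A_54_P1341), 0.32 (A_54_P1342) and 0.10 (A_54_P1420), beside 0.05, 0.48 and 0.09 before the surface was removed. Under the same setting, 10.6% of the 189 miRNAs passed, and 18 of those 20 were among the 29 that passed without it. With only the spots in rows 65 to 128, miR-103 differed by −0.17 (adjusted p = 0.281) and miR-107 by 0.11 (adjusted p = 0.775), and 1 of 188 miRNAs passed. By probe, these middle rows gave −0.52 for A_54_P1341, 0.17 for A_54_P1342, −0.15 for A_54_P1420 and 0.36 for A_54_P1421, none of which passed.

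**Figure D3:**
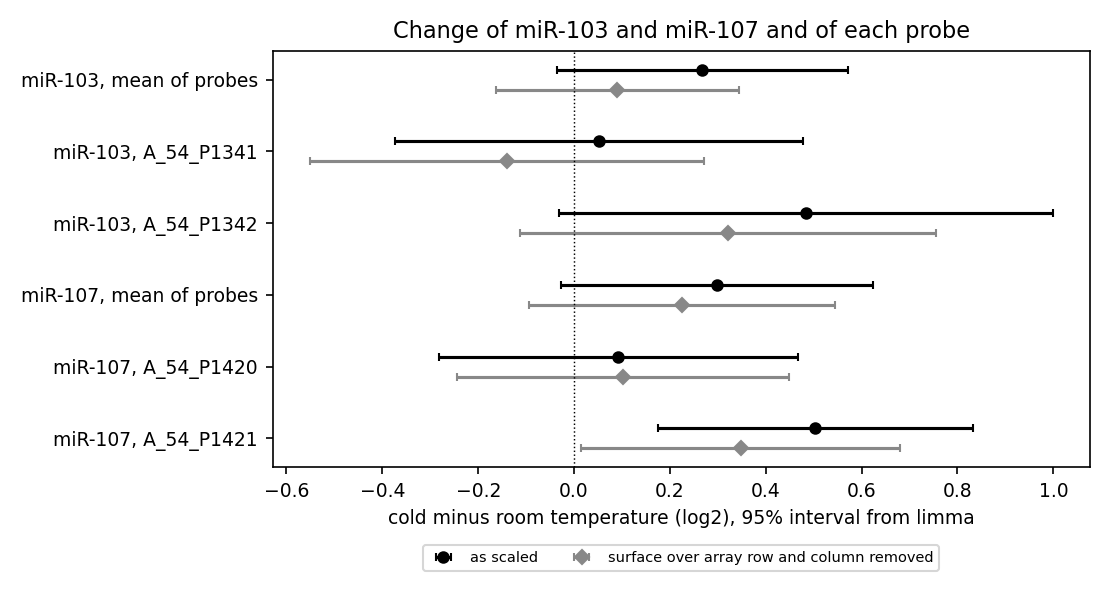
Difference of cold minus room temperature (log2, horizontal) for each miRNA and each probe, with 95% intervals from limma over 3 mice per group. Black circles are the arrays as scaled and grey diamonds the values after the surface over row and column was removed. The interval of A_54_P1421 lies above 0 in both settings before adjustment, and those of both miRNAs include 0.

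The ratio of the sisters does not depend on how an array is scaled by a single factor. It is a ratio of intensities and not of molecules, since probes differ in affinity. The intensity of miR-107 (geometric mean over its probes) was 4.15, 3.73 and 3.12 times that of miR-103 in cold mice 1, 2 and 3, against 4.07, 3.04 and 3.67 times in room temperature mice 4, 5 and 6. The groups overlapped. The log2 ratio of miR-103 over miR-107 averaged −1.86 ± 0.21 in cold mice and −1.83 ± 0.21 in room temperature mice (SD, n = 3 each). The difference was −0.03 (exact permutation test, 2-sided, p = 0.7, where 0.1 is the smallest possible), and its sign turned under several settings.

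Single probe pairs spread more widely. Of 6 pairs compared, 4 between the sisters and 2 within a miRNA, 2 had groups that did not overlap, and both included A_54_P1421. That probe had groups without overlap by itself, as did 24.9% of the 329 probes with cold higher. The 6 pairs share 4 probes and are not independent. No share over other probe pairs was computed, so nothing is read from this count. The first of the 2 pairs was A_54_P1341 over A_54_P1421, with a difference of −0.45 (log2) of cold minus room temperature. The second lay within miR-107: the log2 ratio of A_54_P1420 over A_54_P1421 was 0.91, 1.07 and 1.01 in cold mice 1, 2 and 3, against 1.55, 1.38 and 1.29 in room temperature mice 4, 5 and 6. Probes of the same miRNA thus differed by −0.41 between the groups (exact permutation test, 2-sided, p = 0.1, the smallest possible; 0.3 adjusted over the 6 pairs). After the surface was removed the difference was −0.25 (p = 0.1 by the same exact test).

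By scaled level averaged over 6 mice, miR-107 ranked 22nd and miR-103 ranked 52nd of 189. Per mouse, miR-107 ranked 18, 20 and 21 in the cold mice and 19, 26 and 25 in the room temperature mice. miR-103 ranked 50, 49 and 48 in the cold mice and 51, 51 and 56 in the room temperature mice. By the software's total signal per miRNA, miR-107 was 24th and miR-103 50th of 219. These are ranks of signal, which carries each probe's affinity. From the highest change in cold downward, miR-107 ranked 41st and miR-103 47th. Just above miR-107 in level stood miR-720 and miR-26a, with mean levels (log2) of 0.89 and 0.88 beside its 0.74, and just below it let-7i and miR-29b at 0.52 each. Around miR-103, at −1.11, stood miR-144 (−1.04), miR-193 (−1.09), miR-142-3p (−1.21) and miR-148a (−1.23). Since affinities differ between probes, this order in signal does not give the order in amount.

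**Figure D4:**
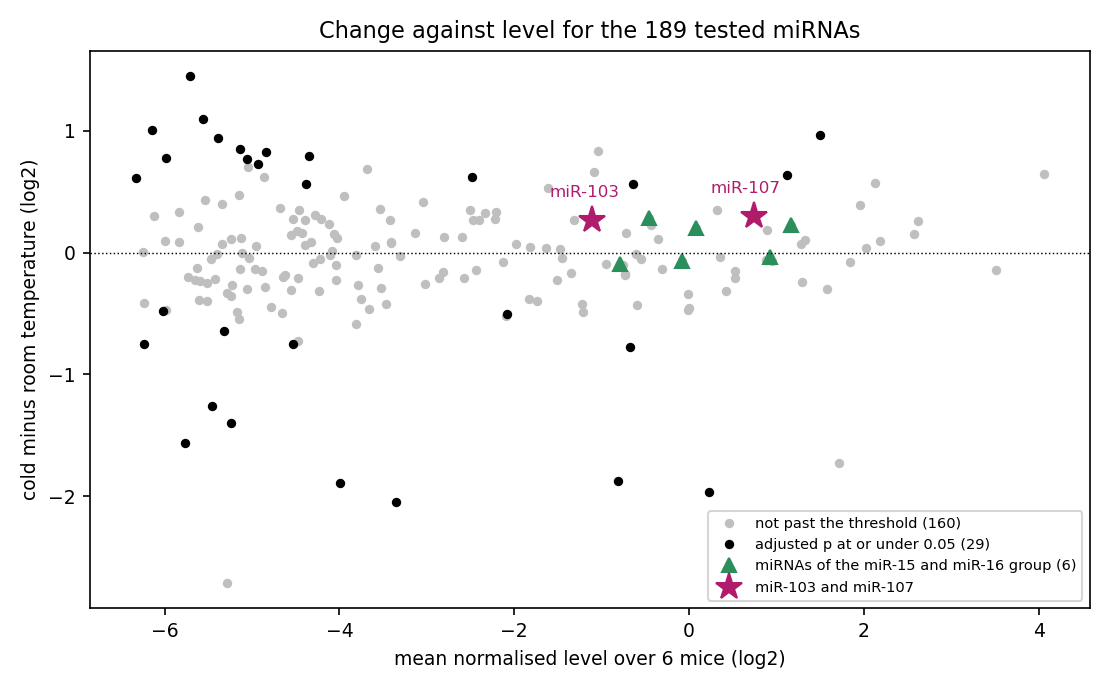
Difference of cold minus room temperature (log2, vertical) against the mean scaled level over 6 mice (log2, horizontal) for the 189 miRNAs tested. Black points passed the threshold (29) and grey points did not (160). Stars mark miR-103 and miR-107, and triangles the 6 tested miRNAs of the miR-15 and miR-16 group, none of which passed.

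The miRNAs whose pattern over the 6 mice was most like each sister were named by the smallest root mean square difference of levels, each centred on its own mean. For miR-103 these were miR-98 (0.06, log2), miR-140, miR-301a, miR-320 and miR-676, up to 0.09. For miR-107 they were miR-574-5p (0.12), miR-210, miR-182, miR-15b and miR-98, up to 0.15. The median over the 188 other miRNAs was 0.28 for miR-103 and 0.32 for miR-107. The sisters stood at 0.17 from each other, which placed miR-107 42nd on the list of miR-103 and miR-103 13th on the list of miR-107. None of these 9 miRNAs passed the test of cold against room temperature, where 15.3% of all did, but they were picked for likeness to sisters that did not pass, so nothing is read from this count.

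Of the 7 miRNAs of the miR-15 and miR-16 group, whose members are known for restraining the cell cycle, 6 were tested. In limma's test 0 passed, adjusted or not at 0.05, beside 15.3% of all 189 miRNAs adjusted and 32.8% unadjusted. The exception to testing was miR-503, which was well above background on 0 of the 4 cold arrays and 2 of the 4 room temperature arrays. The 6 tested differences were 0.23 for miR-15a, 0.29 for miR-15b, 0.20 for miR-16, −0.07 for miR-195, −0.04 for miR-322 and −0.09 for miR-497 (log2, SE between 0.14 and 0.19). Their median was 0.08, beside −0.02 over all 189 miRNAs, and 3 of 6 were positive, beside 47.6% of all. miR-15b came nearest to the sisters in size. It had −0.39, −0.08 and −0.47 in cold mice 1, 2 and 3, against −0.59, −0.58 and −0.62 in room temperature mice 4, 5 and 6, with no overlap (adjusted p = 0.209 in limma, n = 3 mice each). Groups did not overlap with cold higher for 20.1% of all 189 miRNAs. With the surface over the array removed, miR-15b differed by 0.18 (limma, adjusted p = 0.430).

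A wider list held 20 other miRNAs reported to act on insulin signalling or secretion. Of these, 17 were tested, 8 had a positive difference, beside 47.6% of all 189 miRNAs, and 0 passed, beside 15.3% of all. The median was −0.07 (log2). Unadjusted, 4 of the 17 had a limma p under 0.05, beside 32.8% of all. The largest in size were miR-181b at 0.62 ± 0.20, miR-143 at −0.52 ± 0.42 and miR-128 at −0.49 ± 0.21 (SE; adjusted p = 0.0719, 0.423 and 0.156 in limma, n = 3 mice each). miR-181b was −4.34, −4.54 and −4.80 in cold mice 1, 2 and 3, against −5.31, −4.82 and −5.40 in room temperature mice 4, 5 and 6. Its highest room temperature mouse and lowest cold mouse were 0.02 apart. miR-375, a miRNA of pancreatic islet cells, and miR-802 were well above background on 0 of 8 arrays. The remaining untested miRNA, miR-33, was well above background on 0 of 4 cold arrays and 3 of 4 room temperature arrays.

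Markers of the tissue and of other cell types were read on the same arrays at the same scaling. All 4 listed miRNAs of brown fat were tested, and 2 of them rose: miR-378 by 0.97 ± 0.21 and miR-193b by 0.64 ± 0.12 (log2, SE; limma, adjusted p = 0.0219 and 0.0129, n = 3 mice each), where 8.47% of all 189 miRNAs rose. The other brown fat miRNAs overlapped between the groups and did not pass. They were miR-455 at 0.13 ± 0.24 and miR-365 at −0.07 ± 0.23 (limma, adjusted p = 0.741 and 0.840). Of all 189, 16 rose and 13 fell as scaled, against 11 and 17 with the percentile over all probes and 1 and 10 without scaling. Of 4 skeletal muscle miRNAs, 3 fell, beside 6.88% of all 189, and their summed scaled level on the linear scale was 1.49 to 6.44 in cold mice and 7.53 to 11.1 in room temperature mice. The 3 erythroid miRNAs were positive with 0 passing, where 47.6% of all 189 were positive and 15.3% passed. Their summed level was 17.4 to 27.9 in cold mice and 12.3 to 15.1 in room temperature mice. Most of that sum was miR-451, at a mean log2 level of 4.39 in cold mice and 3.75 in room temperature mice. The next, miR-144, stood at −0.63 and −1.46, and the groups overlapped for miR-486. All 7 leukocyte miRNAs were negative with 0 passing, where 47.6% of all 189 miRNAs were positive and 15.3% passed. Their summed level was 0.684 to 1.11 in cold mice and 1.17 to 1.23 in room temperature mice. These sums did not overlap, but the groups did for each of these miRNAs except miR-342-3p. The brightest, miR-142-3p, was −2.37, −0.94 and −1.07 (log2) in cold mice 1, 2 and 3, beside a room temperature mean of −0.97. Of the 4 stromal miRNAs tested, 2 fell (miR-199a-3p and miR-214), beside 6.88% of all 189. In the other direction, miR-199a-5p differed by 0.68 without passing (limma, adjusted p = 0.169, n = 3 mice each). The summed stromal levels were 0.728 to 0.904 in cold mice and 1.18 to 1.29 in room temperature mice. The brightest of these was miR-199a-3p, at a mean log2 level of −1.06 in cold mice and −0.28 in room temperature mice. Neither of 2 endothelial miRNAs passed, beside 15.3% of all 189, and their summed level was 8.98 to 12.0 in cold mice and 11.2 to 12.9 in room temperature mice. Nearly all of it was miR-126-3p, at a mean log2 level of 3.44 in cold mice and 3.58 in room temperature mice. For miR-126-5p these means were −3.67 and −3.38. The liver miRNA miR-122 passed that background criterion on 0 of 4 cold arrays, against 4 of 4 room temperature arrays, and the stromal miR-145 on none of the 8. The scaled level of miR-122 was −6.51, −1.74 and −3.56 (log2) in room temperature mice 4, 5 and 6. Mouse 4 was thus close to the floor of −6.64, at which all cold mice stood. With the surface over the array removed, 1 brown fat, 2 skeletal muscle and 2 stromal miRNAs passed, beside 10.6% of all 189. Under that setting miR-199a-5p differed by 0.09. The part of these cell types in the levels of miR-103 and miR-107 was not tested. In bulk tissue, fewer cells of a type and less RNA per cell cannot be told apart.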

How the data were processed

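miRNAs were measured in brown fat of 6 mice on 8 Agilent 1-colour arrays. The authors deposited each array's scanner output, in which the spot intensity is background-subtracted and linear, per the file headers. The software was Agilent Feature Extraction, in version 10.7.3.1 by those headers and 9.5.3.1 by the submitters' processing notes. The deposited value table held the same intensities (largest difference 0), with column medians between 1.12 and 1.55 units and no scaling, centring or log; it was not used further.

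Control spots and outlier spots were left out. Spots of a probe were averaged and divided by the array's 75th percentile over 267 probes well above background on all 8 arrays. A floor of 0.01 was set and log2 taken. A probe was kept if, in 1 group or both, each array had over 0.5 of its spots well above background. A miRNA was the mean of its kept probes, and arrays of a mouse were averaged. limma 3.58.1 (lmFit, eBayes) in R 4.3.3 was run over 189 miRNAs or 329 probes with Benjamini-Hochberg adjustment, after being tested on simulated data. Single values were compared by exact permutation over mice.

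The members, the lists and the rule for named miRNAs were chosen with earlier results of these data known. The rule took the 2 sisters, the tested miRNAs of the miR-15 and miR-16 group, the 3 largest differences or any call of the insulin list, the 5 most alike and the 2 neighbours in level on each side. The marker lists were brown fat, skeletal muscle, erythroid, leukocyte, endothelial, liver and stromal miRNAs. The normexp alternative used the median spot signal in place of the mean. Alternatives chosen after seeing the data were a loess surface (span 0.5) over row and column, only rows 65 to 128, the median over spots, and leaving out 1 spot, or each mouse in turn for the single probes.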

Additional observations from a re-analysis of the deposited data

How the results depend on the processing

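No paired analysis was possible because the mouse numbers are not shared between the groups. Neither sister passed the test under any alternative run. Over 22 alternatives miR-103 ranged from −0.17 to 0.41 (log2, adjusted p from 0.0777 to 0.871 in limma), and over 23 miR-107 ranged from −0.14 to 0.39 (0.114 to 0.813). The reversals were miR-103 without scaling (−0.17) and with only rows 65 to 128 (−0.17), and miR-107 without scaling (−0.14). With the normexp background the median of all miRNAs was 0.21, beside 0.24 for miR-103 and 0.27 for miR-107. The ratio of miR-103 over miR-107, −0.03 as reported, turned to 0.093 with quantile normalisation, 0.013 with the first arrays of mice 1 and 4 and 0.13 with the median over spots, and lay between −0.14 and 0.086 when 1 mouse was left out, positive without cold mouse 1 (0.06) and without room temperature mouse 5 (0.086). The ratio was −0.14 with the surface removed and −0.28 in rows 65 to 128. A_54_P1341 turned to −0.14 with the surface removed and −0.52 in rows 65 to 128, and ranged from −0.092 to 0.20 when 1 mouse was left out. A_54_P1420 turned to −0.15 in rows 65 to 128. A_54_P1421 lost its call with the surface removed (0.35), with the median over spots (0.34), in rows 65 to 128 (0.36), without 1 spot (0.42) and when any 1 mouse was left out (0.44 to 0.57). The cause was not tested.

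The count of 29 miRNAs past the threshold was 11 without scaling, 13 with scaling to control RNAs, 6 with normexp, 5 without a filter, 16 with probes detected on all arrays, 5 with a floor of 0.1 and 1 in rows 65 to 128. It was 43 with quantile normalisation and 37 with the brightest probe, and between 20 and 31 under the other settings that kept all mice. Leaving out 1 mouse gave 8 to 33: 8 without room temperature mouse 6, 11 without cold mouse 2, 13 without room temperature mouse 5 and 14 without cold mouse 3. Limits are the 6 mice, the brightness gradient within arrays, slide row, which cannot be told apart from group, and low signal at A_54_P1342, which averaged 95.4 units on one array of mouse 4 with 8 of 9 used spots well above background.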
